A study of Mus musculus with 56 samples.

Results

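The 10 genes described here encode granule proteins and one membrane marker of developing granulocytes: Mpo, Elane, Prtn3, Ctsg, Ms4a3, Ngp, Camp, Ltf, Chil3 and Fcnb. They were taken by symbol from a table of 53431 features, 10 of 10 were found, and all 10 passed the filter on low values (a mean of at least 1 FPKM in any group) that left 14700 genes for testing. FPKM is a fragment count scaled by transcript length and by library size, so levels can be compared between genes. Front paws of 56 male DBA/1 mice were profiled by RNA sequencing, 1 library per mouse, in collagen-induced arthritis (CIA), an autoimmune joint disease raised by immunisation with chicken type II collagen. Immunisations fell on days 1 and 21. Intraperitoneal antibody injections began on day 21 and were given 2 times a week for 5 weeks, and RNA was taken on day 91, after dosing had ended. The 4 immunised groups of 13 mice received an isotype control antibody (30 mg/kg), an anti-TNF antibody (clone XT3.11, 30 mg/kg), an anti-IL-6 antibody (clone MP5-20F3, 10 mg/kg), or both of the latter antibodies at those doses (combination). The remaining group, no CIA, held 4 mice. No transgene or engineered allele is given in the labels, and the whole paw holds skin, muscle and bone together.

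Neutrophils fill their granules while they mature in the bone marrow, and each granule type takes the proteins made at that stage. Promyelocytes make the primary (azurophil) granule contents, among them myeloperoxidase and the serine proteases, and later stages make secondary granule contents such as lactoferrin and cathelicidin. Circulating neutrophils keep the proteins but have largely shut off these transcripts, while transcripts such as S100a8, S100a9, Csf3r and Cxcr2 persist in mature cells. Granule gene messenger RNA in a tissue is therefore commonly read as a marker of immature granulocytes. These paw libraries hold RNA of all cells together, so the cells that carried the transcripts were not observed.

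Mpo lies on chromosome 11 (GRCm38, 87793581 to 87804413, plus strand), Ctsg on chromosome 14 (56099881 to 56102574, minus strand), Ms4a3 on chromosome 19 (11629496 to 11640851), Chil3 on chromosome 3 (106147554 to 106167564) and Fcnb on chromosome 2 (28076378 to 28084885). Elane (79886247 to 79888215) and Prtn3 (79874476 to 79883174) are neighbours on chromosome 10, with 3072 bases between them. Camp (109847379 to 109849617), Ngp (110419747 to 110423012) and Ltf (111019271 to 111042767) lie on chromosome 9, with 1169653 bases between Camp and Ltf. All 10 are annotated as protein coding. Because the members rose and fell together across libraries (given further on), the 250 bases before the RefSeq start of 6 of them are printed, 4 with a shared motif among the genes of the early stage and 2 among those of the later stage. Sequences are from the RefSeq promoter table (GRCm38.p6) and read 5′ to 3′ on the gene's strand. Capitals mark matches, on either strand, to AGGAAGT (ETS family), AACGG (MYB family) and TTNNGCAA (C/EBP family). The windows are chr11:87793534-87793783 for Mpo, chr10:79886062-79886311 for Elane, chr10:79879417-79879666 for Prtn3, chr14:56102575-56102824 for Ctsg (minus strand), chr9:110419558-110419807 for Ngp and chr9:111019042-111019291 for Ltf.
Mpo: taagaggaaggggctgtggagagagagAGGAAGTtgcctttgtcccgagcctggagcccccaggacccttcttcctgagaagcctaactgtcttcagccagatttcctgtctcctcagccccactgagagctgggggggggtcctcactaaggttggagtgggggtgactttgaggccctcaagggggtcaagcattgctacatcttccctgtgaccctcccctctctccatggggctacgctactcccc
Elane: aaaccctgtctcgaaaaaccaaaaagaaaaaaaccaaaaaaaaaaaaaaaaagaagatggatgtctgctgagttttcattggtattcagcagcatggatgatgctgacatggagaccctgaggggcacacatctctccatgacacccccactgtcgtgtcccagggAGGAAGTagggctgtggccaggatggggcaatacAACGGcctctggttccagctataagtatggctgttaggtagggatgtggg
Prtn3: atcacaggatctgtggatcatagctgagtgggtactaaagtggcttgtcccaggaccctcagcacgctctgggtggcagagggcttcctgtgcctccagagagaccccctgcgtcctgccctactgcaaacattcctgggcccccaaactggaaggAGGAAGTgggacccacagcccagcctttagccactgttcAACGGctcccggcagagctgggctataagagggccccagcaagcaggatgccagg
Ctsg: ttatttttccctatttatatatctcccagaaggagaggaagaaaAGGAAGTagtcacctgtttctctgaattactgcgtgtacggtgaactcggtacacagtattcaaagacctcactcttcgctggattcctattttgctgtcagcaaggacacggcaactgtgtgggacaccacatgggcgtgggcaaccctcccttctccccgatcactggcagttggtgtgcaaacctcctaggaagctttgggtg
Ngp: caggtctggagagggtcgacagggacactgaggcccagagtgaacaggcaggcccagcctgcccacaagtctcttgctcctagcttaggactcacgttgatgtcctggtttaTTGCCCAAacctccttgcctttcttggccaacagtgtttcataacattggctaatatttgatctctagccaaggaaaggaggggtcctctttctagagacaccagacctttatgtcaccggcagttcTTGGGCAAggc
Ltf: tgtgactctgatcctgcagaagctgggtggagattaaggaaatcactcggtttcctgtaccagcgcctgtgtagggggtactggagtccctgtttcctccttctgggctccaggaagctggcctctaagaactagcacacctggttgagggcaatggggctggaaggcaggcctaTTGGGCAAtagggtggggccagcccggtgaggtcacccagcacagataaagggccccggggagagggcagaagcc

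AGGAAGT stood in 6 of the 10 windows (Mpo, Elane, Prtn3, Ctsg, Chil3 and Fcnb) and in 7.69% of all 32851 promoter windows of that length. TTNNGCAA stood in 3 windows, all of later genes (Ngp, Ltf and Fcnb), and in 9.56% of all windows. Elane and Prtn3 shared a layout, with AGGAAGT starting 84 and 94 bases before the start, AACGG 50 and 55 bases before it, and TATAAG, which is not in capitals, 31 and 32 bases before it. AACGG stood in 14.5% of all windows and TATAAG, which Fcnb also had, in 6.65%. TGTGGT (RUNX family) was found before Ctsg and in 14% of all windows. None of these motifs overlapped another within a member. The motifs were chosen with the sequences in view, so the counts describe these windows only, and a match is not a measured binding site.

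The libraries had an estimated depth of 39.96 to 54.7 M fragments, and no pair of libraries held identical values (highest correlation 0.993). Skeletal muscle markers had a mean log2(FPKM + 1) between 6.83 and 12.05 and epidermis markers between 6.98 and 9.46, so paw tissue was present in every library. In the granule genes 2 libraries stood apart: anti-TNF replicate 1 was the highest of all 56 libraries for all 10 members, and isotype replicate 12 was the next highest for all 10. Values with and without these 2 libraries are given below, an alternative chosen after the data were seen. Titles carry index numbers and mouse numbers. In index order the mouse numbers rise in 5 stretches, with isotype replicate 10 out of order. These stretches, called index runs, are a grouping made here and not one the titles name. The 4 no CIA libraries shared run 1 with isotype replicates 4 and 7 only. Runs 2 to 5 each held several treatments. Mouse numbers lie in blocks by group with 2 exceptions, so treatment and the order of numbering are largely confounded.

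Among immunised paws the late genes Ngp and Camp were the most abundant members. Ngp, a granule protein with a cystatin-like fold, had a median of 15.1 FPKM over the 52 immunised libraries (lowest 0.733, highest 367). Camp, the precursor of the cathelicidin antimicrobial peptide, had 10.4 FPKM (0.333 to 253), and Ltf, which encodes the iron-binding protein lactoferrin, 3.82 FPKM (0.226 to 78.7). Mpo, whose product makes hypochlorous acid, stood at 3.20 FPKM (0.285 to 64.6). The neutrophil serine proteases followed, with medians of 3.13 FPKM for Prtn3 (proteinase 3), 1.95 for Elane (neutrophil elastase) and 1.22 for Ctsg (cathepsin G). The remaining members were low. Chil3, a chitinase-like lectin, had a median of 0.694 FPKM, Fcnb (ficolin B, a soluble pattern recognition lectin) 0.504, and Ms4a3, a membrane protein of granulocyte and monocyte progenitors, 0.481. In this order Ngp exceeded Camp in 47 of 52 libraries and Camp exceeded Ltf in 52. Ltf exceeded Mpo in 33 and Mpo exceeded Prtn3 in 30, so these neighbours were not separated beyond the spread between libraries. Prtn3 was above Elane in 46 libraries, Elane above Ctsg in 41, Ctsg above Chil3 in 47 and Chil3 above Fcnb in 40. Fcnb was above Ms4a3 in only 20 libraries and below it in 32, although its median was higher.

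Levels differed far more between mice of one group than between groups. The share of the variance of log2(FPKM + 1) over the 52 immunised libraries that lay between the 4 groups ran from 1.69% for Camp to 2.84% for Chil3. Within the isotype group Mpo spanned 0.563 to 31.9 FPKM and Ngp 0.733 to 214. The anti-TNF group spanned 0.683 to 64.6 for Mpo and 3.28 to 367 for Ngp. Anti-IL-6 paws had the narrowest spread, from 1.20 to 12.1 FPKM for Mpo and from 1.65 to 82.98 for Ngp. In standard deviations of log2(FPKM + 1) that group had the lowest value for each of the 10 members, for example 0.719 for Mpo against 1.05 to 1.39 in the other 3 immunised groups. The differences in spread between groups were not tested.

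**Figure D1:**
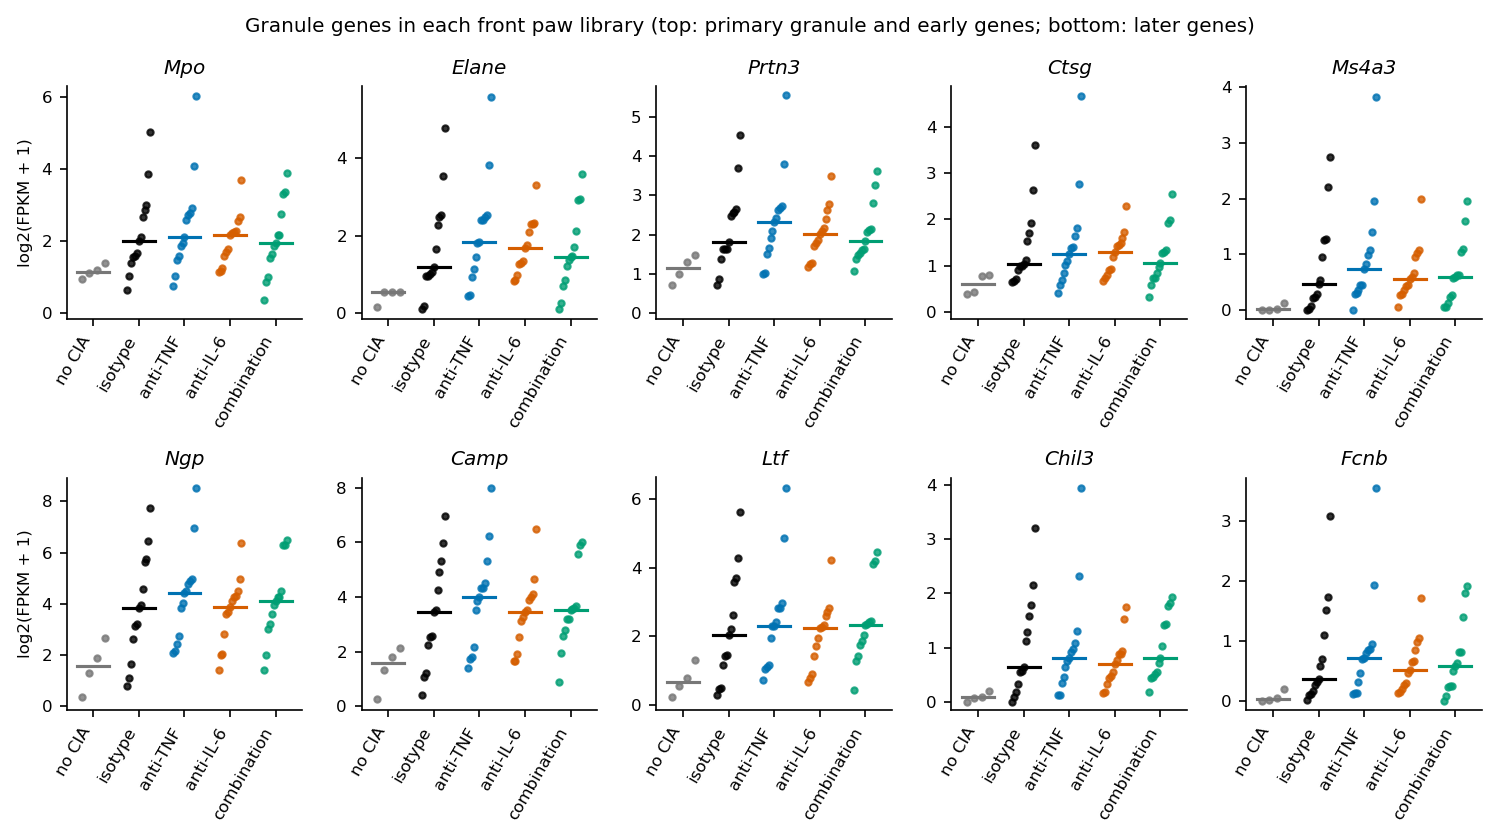
Level of each granule gene in every library, as log2(FPKM + 1), by group (no CIA 4 mice, the others 13 each); points are libraries in order of level, bars are group medians, and the vertical scale differs between panels. Each immunised group spans a wide range, and anti-TNF replicate 1 is the highest point in every panel (Mpo 64.6 FPKM, Ngp 367 FPKM).

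The comparison of isotype with no CIA paws asks how the paws of arthritic mice differ from those of mice without CIA. None of the 10 members passed the test, although all 10 had higher mean levels in isotype paws. Isotype mice had been immunised and had received antibody, and these steps are part of the difference measured. In whole-paw RNA a larger number of cells of a type and more RNA per cell cannot be told apart.

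Primary granule genes were low in no CIA paws. The 4 no CIA libraries had 1.17, 1.30, 1.63 and 0.952 FPKM of Mpo, and the isotype libraries had a lowest value of 0.563, a median of 3.07 and a highest of 31.9. Of the 13 isotype libraries 10 lay above all 4 no CIA libraries for Mpo and 1 lay below, so the groups overlapped. The difference was 1.10 ± 0.611 (SE) on the log2(FPKM + 1) scale (limma adjusted p = 0.336). Elane had 0.111, 0.460, 0.470 and 0.453 FPKM without CIA, against a lowest of 0.070, a median of 1.295 and a highest of 26.7 under isotype. For Elane 11 of 13 isotype libraries were above every no CIA library, with a difference of 1.30 ± 0.637 (limma adjusted p = 0.296). Prtn3 and Ctsg had medians of 2.496 and 1.05 FPKM under isotype, against means of 1.22 ± 0.501 and 0.523 ± 0.235 (SD, n = 4) without CIA. Their differences were 1.05 ± 0.523 and 0.83 ± 0.445 (limma adjusted p = 0.302 and 0.327). Ms4a3 was listed at 0 in 2 of the 4 no CIA libraries and at 0.094 or less in the others, and had a median of 0.387 FPKM (0 to 5.70) under isotype, a difference of 0.75 ± 0.419 (limma adjusted p = 0.338).

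Among the later genes Ngp, Camp and Ltf had the largest differences on the log2(FPKM + 1) scale, which understates changes of low genes. With a pseudocount of 0.1 Chil3 (2.38) lay above Ltf (2.21). Ngp had 0.286, 2.69, 1.46 and 5.45 FPKM in no CIA paws, and a lowest of 0.733, a median of 13.3 and a highest of 214 in isotype paws. For Ngp 9 of 13 isotype libraries lay above all no CIA libraries and the others fell within their range. The difference was 2.33 ± 0.961 (SE), with a 95% confidence interval from 0.40 to 4.26 (limma adjusted p = 0.268). Camp had a mean of 1.89 ± 1.35 FPKM without CIA (SD, n = 4) and a median of 9.84 under isotype, and differed by 2.04 ± 0.937. Ltf had 0.716 ± 0.558 and a median of 3.14, and differed by 1.54 ± 0.751 (limma adjusted p = 0.281 for Camp and 0.296 for Ltf). Chil3 and Fcnb were close to 0 without CIA, at 0.071 ± 0.066 and 0.052 ± 0.070 FPKM, and had isotype medians of 0.573 and 0.291. Their differences, 0.95 ± 0.435 and 0.71 ± 0.410, had limma adjusted p = 0.282 and 0.3497.

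Thus 0 of 10 members were called, where limma called 0.156% of all genes tested. At an unadjusted p under 0.05, 5 of 10 members were higher (Elane, Ngp, Camp, Ltf and Chil3), against 11.9% of all genes tested in that direction. Of these, Elane, Ltf and Chil3 had means under 1 FPKM without CIA, so they passed the filter only through immunised groups. With no filter on low values the count was also 5 of 10. The median difference of the 10 members was 1.07, of the 5 early members 1.05 and of the 5 late members 1.54, beside 0.03 over all genes tested. Without isotype replicate 12 and anti-TNF replicate 1, Ms4a3 and Fcnb no longer reached the filter, so these members had passed it only through the highest libraries. The other 8 had a median difference of 0.96 there, against 1.20 for the same 8 with all libraries, with 0 called and 3 of 8 at an unadjusted p under 0.05 (Ngp, Camp and Chil3). With all 10 kept, leaving out isotype replicate 12 alone gave a median of 0.86. Within index run 1 the 2 isotype libraries had 3.34 and 1.62 FPKM of Mpo and 14.6 and 8.24 of Ngp, where the 4 no CIA libraries reached at most 1.63 and 5.45. With index run as a covariate the median difference of the members was 0.91, and 0 of 10 were called where 18.7% of all genes tested were. In that fit all 10 members had smaller estimates with wide errors. Ngp differed by 2.03 ± 1.47 (SE) in place of 2.33 and Ltf by 1.10 ± 1.16 in place of 1.54. Ctsg differed by 0.20 ± 0.683 (SE) in place of 0.83 and Mpo by 0.58 ± 0.937 in place of 1.10. Ms4a3 differed by 0.38 ± 0.637 in place of 0.75 and Fcnb by 0.31 ± 0.629 in place of 0.71.

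Marker lists of several other cell types were also higher on average in isotype paws. Mature neutrophil markers (13 measured) summed to between 54.2 and 74.02 FPKM in no CIA paws and between 58.9 and 1223 in isotype paws, with 13 of 13 higher on average, 6 of them at an unadjusted p under 0.05, and none called. Erythroid precursor markers (13 measured, 6 tested) summed to between 9.55 and 13.7 FPKM without CIA and between 8.92 and 86.1 under isotype, with 6 of 6 higher, 0 at an unadjusted p under 0.05 and none called by limma. No marker of either list was at 0 in every library of a group. With the mature neutrophil score (mean log2(FPKM + 1) of the list) as a covariate, the median difference of the members was 0.59, and with the erythroid precursor score it was 0.30, again with 0 of 10 called in each. For Ngp the difference was then 1.03 ± 0.568 and for Mpo 0.22 ± 0.299, both with the erythroid score. That score correlated with every member over immunised paws (0.809 to 0.918, given further on). A fit with it takes out whatever variation it shares with the members, so it cannot show what part the list had. Lists that were not fitted as covariates differed as well. Bone-forming cell markers (10 measured, 9 tested) summed to between 227 and 605 FPKM without CIA and between 265 and 4304 under isotype, with 9 of 9 higher (median 1.43), 6 of them at an unadjusted p under 0.05. Osteoclast markers were higher in 7 of 7 (median 1.19, 2 at an unadjusted p under 0.05), mast cell markers in 4 of 4 (median 0.46, all 4) and monocyte and macrophage markers in 9 of 10 (median 0.79, 7). Skeletal muscle markers were lower in 9 of 9 (median -0.66), and limma called none of these genes after adjustment. The part of any of these lists, fitted or not, in the members' difference was not tested.

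The antibody groups were also set against no CIA paws, and all of these comparisons share the same 4 no CIA libraries. Anti-TNF paws had the largest differences, with Ngp higher by 2.78 ± 0.961, Camp by 2.56 ± 0.937 and Elane by 1.65 ± 0.637 (limma adjusted p = 0.159, 0.166 and 0.179). None of the 10 members was called, where 0.551% of all genes tested were, and 9 of 10 were higher at an unadjusted p under 0.05 (all but Fcnb), against 15% of all genes. That count includes Ms4a3, which entered the test only through the highest libraries, and it was also 9 of 10 with no filter on low values. Without the 2 highest libraries it was 6 of 8 (not Mpo or Ctsg). In anti-IL-6 paws Ngp differed by 2.13, Camp by 2.03 and Elane by 1.27 (limma adjusted p = 0.150, 0.155 and 0.180), and 0 of 10 were called beside 0.558% of all genes tested. Ngp and Camp had an unadjusted p under 0.05 there, against 21.2% of all genes in that direction. Elane had at least 0.772 FPKM in every anti-IL-6 library and at most 0.470 in every no CIA library, so these groups did not overlap, as was the case for 2.7% of all genes tested in that direction. Elane, Ctsg, Ms4a3, Ltf, Chil3 and Fcnb had means under 1 FPKM without CIA and passed the filter only through immunised groups. This case and the counts of this paragraph are therefore descriptions. With no filter the unadjusted counts were also 2 of 10 for anti-IL-6 and 4 of 10 for the combination. In combination paws the same 3 genes differed by 2.55, 2.19 and 1.15 (limma adjusted p = 0.470, 0.470 and 0.488), and 0 of 10 were called beside 0.156% of all genes tested. Unadjusted, 4 of 10 were higher (Ngp, Camp, Ltf and Chil3), against 7.97% of all genes. Elane in anti-IL-6 paws was the single case without overlap with no CIA. None of the 10 members was free of overlap under isotype, anti-TNF or the combination, where 1.59%, 0.714% and 1.46% of all genes were higher without overlap. All no CIA libraries are in index run 1, which holds no library of the 3 antibody groups. With index run as a covariate, Elane differed by 0.48 between anti-IL-6 and no CIA, and 4 members were lower in anti-IL-6 paws: Mpo (-0.070), Ctsg (-0.24), Ms4a3 (-0.11) and Fcnb (-0.14). Ctsg was also lower for the combination in that fit (-0.20), and none of the members was called in either comparison. In the same fits 10.9% of all genes were called for anti-IL-6 and 0.803% for the combination.

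TNF blockade against isotype left the granule genes within the spread between mice. Anti-TNF paws had a median of 3.32 FPKM of Mpo (0.683 to 64.6) against 3.07 under isotype (0.563 to 31.9), and the groups overlapped over nearly all of their ranges. The Mpo difference was 0.19 ± 0.419 (SE, 95% confidence interval -0.65 to 1.03, limma adjusted p = 0.981). Ngp had a median of 20.4 FPKM (3.28 to 367) against 13.3 (0.733 to 214), a difference of 0.45 ± 0.659 (-0.87 to 1.77, limma adjusted p = 0.979). Camp differed by 0.52 ± 0.643 and Elane by 0.35 ± 0.437, and the other members by between 0.024 (Chil3) and 0.26 (Ltf). Limma called 0 of 10 members and 0% of all 14700 genes, with 0 members and 5.47% of all genes at an unadjusted p under 0.05. The 10 mean differences were all positive (median 0.21, against 0.01 over all genes tested). That direction depended on which paws were kept: without anti-TNF replicate 1 alone the median was -0.055 and 7 of 10 members were lower. Without both anti-TNF replicate 1 and isotype replicate 12, the 8 members that still reached the filter had a median of 0.20. The same 8 had 0.25 with all libraries. Means show the same weight of single mice. Mean Mpo was 9.11 ± 17.1 FPKM (SD, n = 13) under anti-TNF and 4.48 ± 4.18 (n = 12) without replicate 1, and under isotype it was 6.18 ± 8.50 and, without replicate 12, 4.04 ± 3.71.

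IL-6 blockade against isotype likewise gave no call among the members. Anti-IL-6 paws had medians of 3.56 FPKM of Mpo (1.20 to 12.1) and 13.5 of Ngp (1.65 to 82.98), which lay inside the isotype ranges. Mpo differed by -0.23 ± 0.419 (SE, 95% confidence interval -1.07 to 0.61, limma adjusted p = 0.861) and Ngp by -0.19 ± 0.659 (-1.52 to 1.13, limma adjusted p = 0.932). All 10 differences were negative, from -0.012 for Camp to -0.30 for Chil3, with a median of -0.16 beside 0.03 over all genes tested. Limma called 0 of 10 members and 0.952% of all genes, and 0 members had an unadjusted p under 0.05, against 12.8% of all genes. The sign depended on 1 library: without isotype replicate 12, 9 of 10 members were higher and the median was 0.054. With the erythroid precursor score as a covariate 10 of 10 were higher (median 0.28), with none called. Haemoglobin genes (4 tested) had a median difference of -0.74 and erythroid precursor genes (6 tested) of -0.32 in this comparison, none called, and their part in the result was not tested.

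In the combination group Mpo had a median of 2.89 FPKM (0.285 to 13.9) and Ngp of 16.4 (1.67 to 89.7). The lowest Mpo value lay below the lowest isotype value of 0.563, and the groups otherwise overlapped. Against isotype Mpo differed by -0.20 ± 0.419 (SE) and Ngp by 0.23 ± 0.659 (limma adjusted p = 1.00 each). All 5 early members were lower on average (median -0.15), whereas 3 of the 5 late members were higher (Ngp, Camp and Ltf, median of the 5 0.13), and 0 of 10 were called beside 0% of all genes tested. At an unadjusted p under 0.05 there were 0 members and 5.78% of all genes. Without isotype replicate 12, 9 of 10 members were higher (median 0.11), and with the erythroid precursor score as a covariate 10 of 10 were (median 0.31), with none called. Comparisons between the antibody groups called 0 of 10 members as well. The shares of all genes called were 0% for combination against anti-TNF, 0.102% for combination against anti-IL-6 and 0% for anti-TNF against anti-IL-6. At an unadjusted p under 0.05 limma found none of the members there, against 1.09%, 11.4% and 4.68% of all genes. The largest of these differences was 0.64 ± 0.659 for Ngp between anti-TNF and anti-IL-6 (-0.68 to 1.97). The interaction of both antibodies, which asks whether the effect of one differed with the other, gave -0.48 ± 0.618 for Elane and -0.36 ± 0.909 for Camp, and 0 of 10 calls beside 0.116% of all genes. No member had an unadjusted p under 0.05 in that limma contrast, where 9.57% of all genes did. For Camp the interval of anti-TNF against isotype ran from -0.77 to 1.81, so differences of that size towards higher levels under anti-TNF are not excluded.

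**Figure D2:**
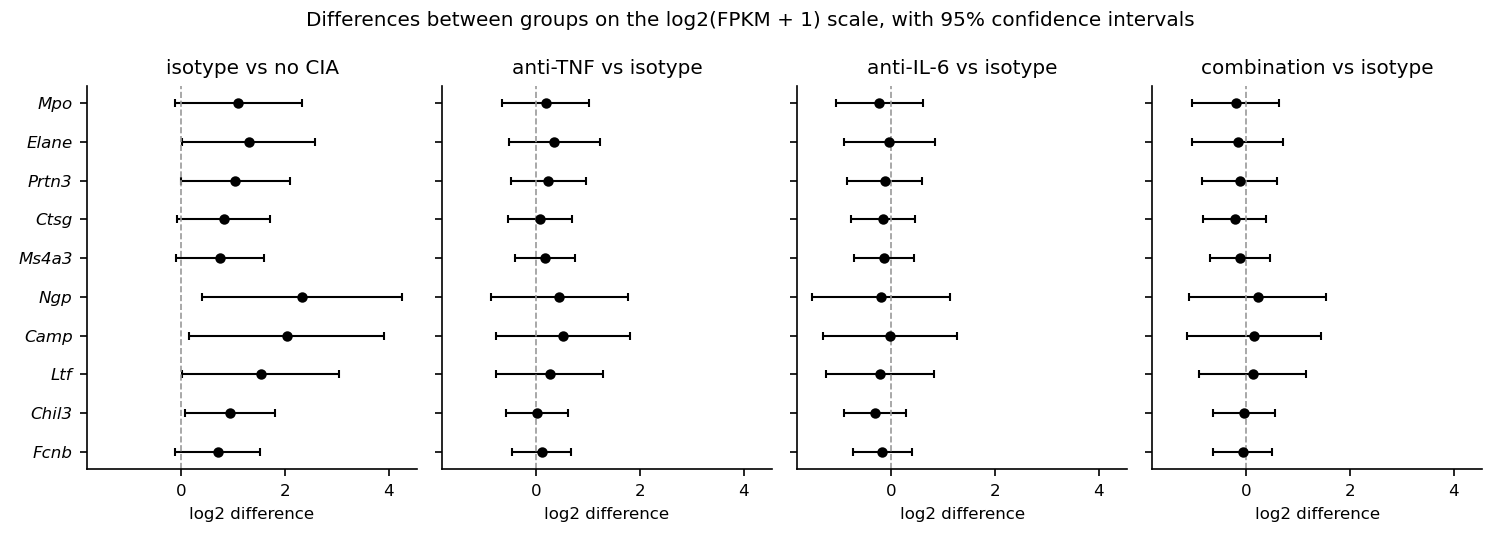
Difference of each granule gene between groups on the log2(FPKM + 1) scale; points are limma estimates and bars 95% confidence intervals (13 mice per immunised group, 4 without CIA). Intervals of 5 genes exclude 0 for isotype vs no CIA before adjustment (Elane, Ngp, Camp, Ltf and Chil3), and all intervals against isotype include 0.

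Within single libraries the 10 genes moved together. Over the 52 immunised libraries the 45 pairs of members had Pearson correlations of log2(FPKM + 1) from 0.846 to 0.986, with a median of 0.927, and Spearman correlations from 0.756 to 0.981. The largest permutation p over the 45 pairs was 1e-05, the smallest that 100000 resamples can give, and it remained 1e-05 after Benjamini-Hochberg adjustment. Without the 2 libraries farthest from the median the correlations ran from 0.772 to 0.982. Pairs of early genes had a median of 0.948 and pairs of late genes of 0.918. Pairs of 1 early and 1 late gene were nearly as close, with a median of 0.917. The late genes were not uniform: Ngp, Camp and Ltf paired at 0.977 to 0.986. Fcnb had higher Pearson correlations with the early genes (0.940 to 0.947) than with the other late genes (0.894 to 0.935). By Spearman, however, Fcnb was closest to Ngp (0.948). Chil3 was closest to the early gene Prtn3 (Pearson 0.943, Spearman 0.921). These pairs were picked after their values were seen. The libraries share depth, scaling and tissue makeup, so these correlations describe the paws and not the genes' control.

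The ratio of a late to an early gene overlapped between all groups. The log2 ratio of Ngp to Mpo FPKM had a mean of 1.83 ± 1.11 (SD, n = 13) under isotype, 2.18 ± 0.643 under anti-TNF, 1.93 ± 0.997 under anti-IL-6 and 2.47 ± 0.797 in the combination group. No CIA paws had 0.344 ± 1.93 (n = 4), with single values of -2.03, 1.05, -0.16 and 2.52, which overlap every other group. The 2 paws with the highest levels lay within the range of their groups, at 2.51 in anti-TNF replicate 1 and 2.75 in isotype replicate 12. The highest ratios of Ngp to Mpo reached 3.48 in the combination group and the lowest of an immunised paw was -0.888, under isotype.

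Against mature neutrophil genes the members were only loosely tied. Correlations of each member with the mature neutrophil score over the 52 immunised libraries ran from 0.277 for Ctsg to 0.528 for Chil3 (median 0.362), and Spearman correlations from 0.246 to 0.585. In all, 20 relations were computed in this family. By permutation 10 of 10 passed for Pearson's r (largest adjusted p = 0.0462) and 9 of 10 for both measures, Ctsg having an adjusted Spearman p = 0.0785. Leaving out anti-IL-6 replicates 12 and 13, the farthest from the median score, gave 0.326 to 0.563. Within groups the correlations ranged from -0.022 (Ctsg, combination) to 0.686 (Chil3, combination), and within index runs of at least 6 libraries from 0.076 to 0.758. Chil3 and Prtn3 (r = 0.470) were the members closest to mature neutrophil genes.

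Single paws show how the gene sets came apart. Anti-IL-6 replicate 12 had 296 FPKM of S100a8, a calcium-binding alarmin of neutrophils, 56.2 of the G-CSF receptor gene Csf3r and 20.2 of the chemokine receptor gene Cxcr2, and the mature neutrophil score ranked 2 of 56. Its Ngp was 1.65 FPKM and its Mpo 2.00, and its granule gene score (the mean of the 10) ranked 44. Combination replicate 5 had 37.3 FPKM of Csf3r and the lowest Mpo (0.285), Elane (0.070) and Ctsg (0.251) of all 56 libraries, while its Chil3 was 1.67. Anti-TNF replicate 4 had 52.8 of Csf3r, 2.04 of Mpo and 3.28 of Ngp. These paws were high in mature neutrophil transcripts and low in the members named here, apart from Chil3 in combination replicate 5. Granule genes outside the set could differ: Lcn2 was highest of all libraries in anti-TNF replicate 4 (208 FPKM).

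The opposite pattern occurred as well. Isotype replicate 12 had 31.9 FPKM of Mpo and 214 of Ngp but only 5.63 of Csf3r and 1.66 of Cxcr2, and ranked 14 in the mature neutrophil score. Anti-TNF replicate 5 had 16.2 of Mpo and 125 of Ngp with 2.89 of Csf3r. Combination replicate 6 had 9.06 of Mpo and 89.7 of Ngp with 3.44 of Csf3r. S100a8 was 826 FPKM in anti-TNF replicate 1, where both sets were high, and highest in anti-TNF replicate 12 (967), whose Ngp was 13.3. The log2 ratio of S100a8 to Ngp thus ran from 0.601 in combination replicate 6 to 7.49 in anti-IL-6 replicate 12. By group it had means of 2.80 ± 1.46 under isotype, 2.90 ± 1.93 under anti-TNF, 3.28 ± 1.79 under anti-IL-6, 2.38 ± 1.71 in the combination (SD, n = 13 each) and 3.25 ± 1.32 without CIA (n = 4). Csf3r, Cxcr2 and the single paws named here were chosen after their values were seen.

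**Figure D3:**
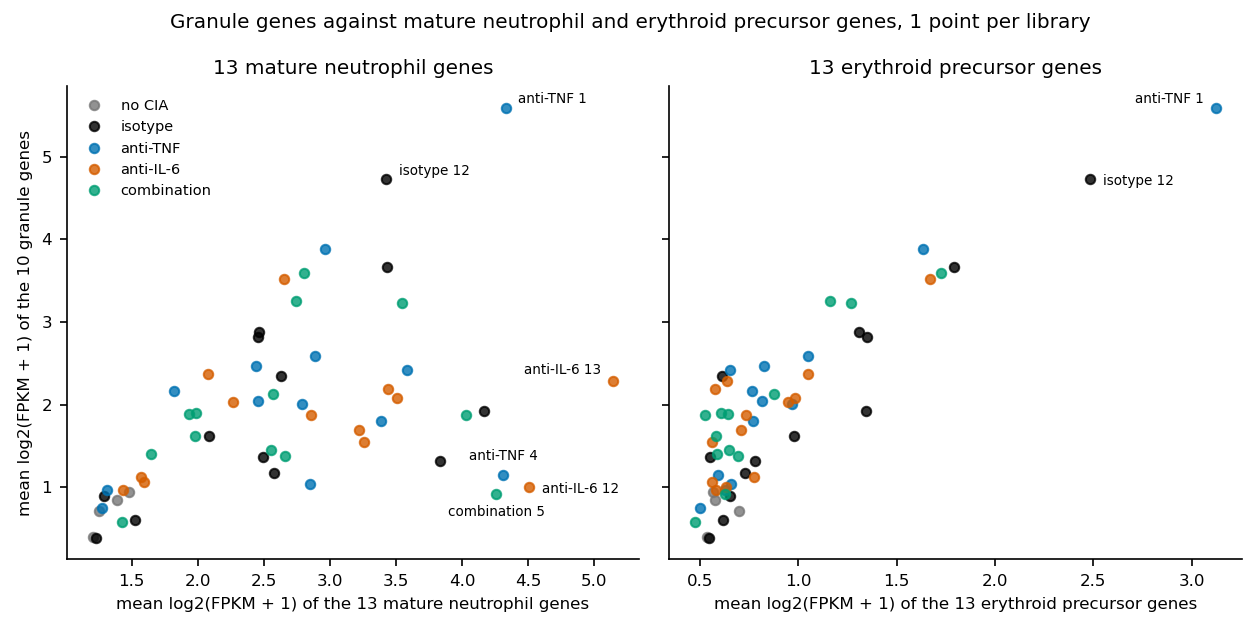
Mean log2(FPKM + 1) of the 10 granule genes (vertical) against that of 13 mature neutrophil genes (left) and of 13 erythroid precursor genes (right), 1 point per library, coloured by group. On the left, paws such as anti-IL-6 replicate 12 are high in mature genes (4.51) and low in granule genes (1.01), and on the right anti-TNF replicate 1 and isotype replicate 12 are highest on both axes.

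The genes of the mature list differed among themselves in this respect. Mmp8, a secondary and tertiary granule collagenase, had a correlation of 0.80 with the early members' mean and 0.83 with the late members' mean, and Ly6g, a surface marker of mouse neutrophils, 0.77 and 0.81. Retnlg, a resistin-like neutrophil gene, had 0.63 and 0.70. By contrast Cxcr2 had 0.03 and 0.04, and Csf3r 0.10 and 0.12. S100a8 and S100a9 lay between, at 0.50 and 0.49 with the early members. Il1r2, the decoy receptor gene for IL-1, had -0.23 and -0.27. Other granule genes split the same way: of 15 tested, the median correlation was 0.21 with the early and 0.22 with the late members. Lyz2 (lysozyme) had 0.20 and 0.21, Hp (haptoglobin) 0.16 and 0.17 and Wfdc21 0.00 and -0.04, whereas Lcn2 (lipocalin, a siderophore-binding granule protein) had 0.53 and 0.57, Olfm4 0.57 and 0.59, and Cd177 0.93 and 0.95. Apart from S100a8, S100a9, Il1r2, Lyz2, Hp, Wfdc21 and Cd177, the genes of this paragraph were picked after their values were seen. These are descriptions over 52 libraries.

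Erythroid precursor genes tracked the members closely. Correlations of each member with the erythroid precursor score ran from 0.809 for Ngp to 0.918 for Fcnb, and Spearman correlations from 0.635 to 0.752. Each of these 10 relations had an adjusted permutation p = 2e-05, from a raw p = 1e-05. Leaving out anti-TNF replicate 1 and isotype replicate 12, which were farthest from the median, gave 0.761 to 0.830. The relation held within each group (0.481 for Chil3 under anti-IL-6 to 0.970 for Fcnb under anti-TNF) and within index runs (0.758 to 0.984). Single erythroid precursor genes (6 tested) had correlations with the early members' mean from 0.67 (Car2) to 0.88 (Car1). Alas2, the enzyme that starts haem synthesis in erythroid cells, was 31.7 FPKM in anti-TNF replicate 1 and 18.5 in isotype replicate 12, against a median of 1.57 over immunised paws. The same 2 paws ranked 1 and 2 in the erythroid precursor score. In anti-IL-6 replicate 12 and combination replicate 5, which were high in mature neutrophil genes and low in Mpo, Alas2 was ordinary, at 1.02 and 0.965.

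Scores of 4 further cell types were related to the members after the data had been seen (40 relations). Megakaryocyte genes gave correlations of 0.782 to 0.845 and B cell precursor genes 0.704 to 0.832, and all 10 members passed for both measures with each list (largest adjusted permutation p = 4e-05). Leaving out the 2 farthest libraries gave 0.665 to 0.802 for megakaryocyte genes and 0.678 to 0.822 for B cell precursor genes. These relations varied more within parts of the data. For megakaryocyte genes they ran from 0.488 to 0.966 within groups and from 0.360 to 0.950 within index runs. For B cell precursor genes the ranges were 0.299 to 0.938 and 0.658 to 0.915. Monocyte and macrophage genes gave only 0.193 to 0.384, with 2 of 10 members passing both measures. Their Spearman correlations were higher, from 0.256 to 0.526. By Spearman alone all members but Mpo and Ctsg passed (adjusted permutation p = 0.0514 and 0.0890). Within groups Pearson correlations with that score ran from 0.055 to 0.683. Single genes varied within these lists. Of 9 B cell precursor genes measured 3 passed the filter, with 0.29 to 0.76 against the early members' mean. Megakaryocyte genes (6 tested) had -0.03 to 0.88, and monocyte and macrophage genes (10 tested) -0.18 to 0.79. Mast cell genes gave -0.001 to 0.199 and 0 of 10 passed by permutation after adjustment (smallest adjusted Pearson p = 0.210). Cell cycle genes had a median correlation of -0.10 with the early members, and progenitor genes (Kit, Cd34 and others, 9 tested) of 0.05. Myb, a transcription factor of progenitors that stands on that list and on the list of granulopoiesis regulators and was picked after its value was seen, had 0.51 with both the early and the late members.

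**Figure D4:**
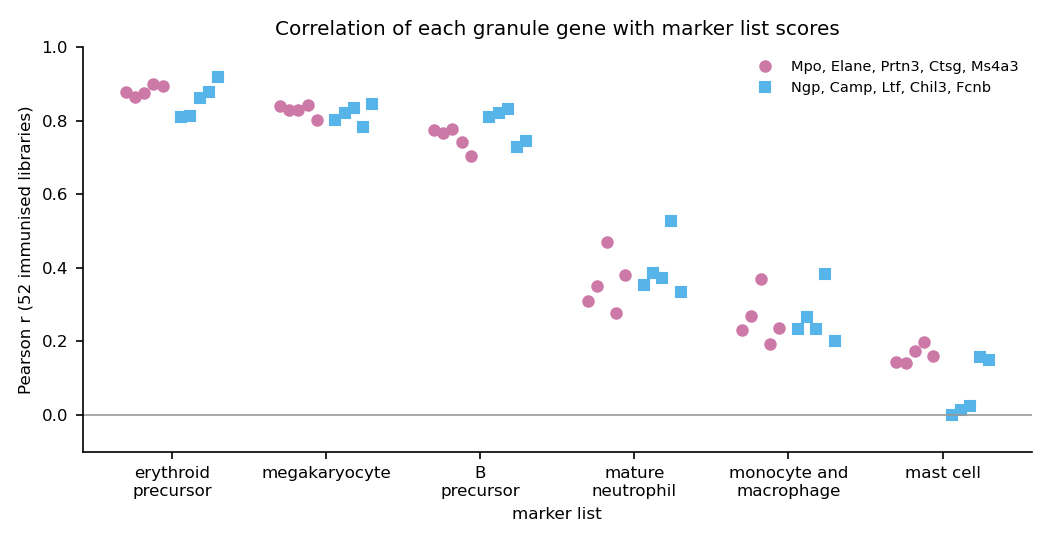
Pearson correlation of each granule gene with 6 marker list scores over the 52 immunised libraries; circles are Mpo, Elane, Prtn3, Ctsg and Ms4a3, squares Ngp, Camp, Ltf, Chil3 and Fcnb, in that order from left to right. Erythroid precursor scores give 0.809 to 0.918, mature neutrophil scores 0.277 to 0.528 and mast cell scores -0.001 to 0.199.

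The genes outside the set whose pattern was most like it were found by Pearson correlation with the mean z-score of the early or the late members over the 52 immunised libraries. Cd177, which encodes a surface glycoprotein of neutrophils, came first for both (0.929 and 0.952). It had 0.171 ± 0.063 FPKM without CIA (SD, n = 4) and reached 14.2 in anti-TNF replicate 1. I830127L07Rik, annotated as a transcribed unprocessed pseudogene in GENCODE M21 and as the protein-coding gene Ly6a2 in the RefSeq table, came next for both (0.913 and 0.949). Whether its reads are shared with related Ly6 genes was not tested. Then followed, for the early members, the platelet glycoprotein gene Gp9 (0.881), the carbonic anhydrase gene Car1 (0.877), Slc4a1, the anion exchanger of red cells (0.877), the platelet chemokine gene Ppbp (0.865), Nrgn (0.860) and Alas2 (0.851). For the late members they were Ppbp (0.886), Gp9 (0.877), Nrgn (0.868), Slc4a1 (0.868), Car1 (0.868) and Clec1b (0.860), a receptor gene of platelets. Removing group means changed Cd177 to 0.931 and 0.954.

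The regulators of granulocyte formation that could be tested mostly had low correlations with the members. Of 14 measured, 11 passed the filter (not Cebpe, Gfi1 and Csf3), with a median correlation of 0.11 with the early and 0.15 with the late members. Myb was the highest of the 11, at 0.51 with both. Cebpa, the factor that commits progenitors to granulocytes, had 72.3 ± 9.95 FPKM without CIA and a median of 68.1 over immunised paws (r = -0.10 with the early members). Cebpb had -0.18 and Cxcl12, the marrow-retention chemokine, 0.20. Between isotype and no CIA 10 of these 11 genes were higher and 1 lower, with 5 higher at an unadjusted p under 0.05 and 0 called by limma. Of the 15 other granule genes tested 13 were higher and 2 lower, with 7 at an unadjusted p under 0.05 and 0 called. Lyz2 differed by 0.80 ± 0.367, Wfdc21 by -0.61 ± 0.392 and Hp by 0.64 ± 0.615 (limma adjusted p = 0.281, 0.395 and 0.572). Against isotype, 13 of the 15 other granule genes were higher under anti-TNF, 12 under anti-IL-6 and 6 in the combination, with no call in any of these.

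Overlap and sequence likeness limit 3 members. Prtn3 overlaps Plppr3 on the other strand, and whether strand was used in counting is not given in the sources used here. Plppr3 had 3.07 ± 0.583 FPKM without CIA (n = 4) and 2.05 to 8.53 in immunised paws, and in combination replicate 5 it was 7.53 where Prtn3 was 2.08 and Elane, its neighbour without an overlap, 0.070. Mpo overlaps Gm11505, which reached at most 0.184 FPKM and matches it over 208 bases. The longest Chil3 transcript is 94.3% identical to that of Chil4 over 1540 aligned bases, so reads could be split between them, and Chil4 had at most 0.799 FPKM. Values of these genes are uncertain to that extent.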

How the data were processed

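RNA of whole front paws was isolated with a Qiagen RNeasy kit, and stranded libraries (Illumina TruSeq) were read in pairs on a NovaSeq system, per the labels' protocols. The deposited values are FPKM, 1 column per library, as read from the values. The submitters' processing notes name DESeq2 with no version, while aligner, build, annotation and strand use have no mention in these sources. Depth was estimated from the steps of low FPKM in single-exon genes of at least 400 bases (tolerance 0.05 of a step), where 75.6% to 80.5% of values were whole multiples, so whole counts were not rebuilt. Identifiers matched GENCODE M21 (GRCm38) for 51027 features.

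All 56 libraries entered 1 linear model of log2(FPKM + 1) with a mean per group (limma 3.58.1, R 4.3.3, trended prior variance, robust fit). Genes with a mean of at least 1 FPKM in any group were tested, 14700 in all, with two-sided p-values adjusted by Benjamini-Hochberg over them and a threshold of 0.05. The log2(FPKM + 1) scale understates changes of low genes. P-values measure the spread between mice. Correlations used Python 3.11.15 with scipy 1.17.1, numpy 2.4.6, pandas 2.3.3 and 100000 resamples, two-sided, and figures matplotlib 3.10.9. List scores are mean log2(FPKM + 1).

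The members, lists and tests were chosen with earlier results of these data known. All 10 members were named throughout, and of the other lists their counts. Of the mature neutrophil, other granule and regulator lists the 3 genes of highest mean FPKM were also named, since none was called. Other single genes were named without that rule. The most alike genes are the 8 with the highest correlation for each class. Alternatives were pseudocounts of 0.1 and 10, other filters, fits of the compared groups alone, covariates (index run, marker scores), median-of-ratios scaling and leaving out each library.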

Additional observations from a re-analysis of the deposited data

Results flagged for a closer look

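In the no CIA group the lowest of the 4 Elane values, 0.1111 FPKM in replicate 1, stood far from the other 3, which lay between 0.453 and 0.470 FPKM. Its gap to the nearest value took 0.953 of the group's whole range, above Dixon's 95% critical value for 4 samples. The same library had the lowest Ngp, Camp and Ltf of all 56. It was 1 case among 12 groups of values checked. Chance gives such a case in about 1 in 20 groups, so 1 among 12 is not unusual.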

How the results depend on the processing

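No member was called in any of the 400 counts made over comparisons and alternatives, and the lowest adjusted p over all of them was 0.0752, for anti-TNF against no CIA. Among differences that passed the test in neither setting, 266 of 3930 changed sign: 73 in the interaction, 51 for anti-IL-6 against isotype, 47 for combination against anti-IL-6, 45 for combination against isotype, 20 for anti-TNF against isotype, 19 for combination against anti-TNF, 5 each for anti-TNF against anti-IL-6 and anti-IL-6 against no CIA, and 1 for combination against no CIA. None changed sign for isotype or anti-TNF against no CIA. Leaving out each library in turn moved the members' median difference between isotype and no CIA within 0.86 to 1.20. A pseudocount of 0.1 gave 2.16 and of 10 gave 0.36 for that median. Under the alternatives run, the 60 correlations kept their direction and their side of the threshold. No paired analysis was possible because the replicate numbers were given here in accession order, mouse numbers do not repeat between groups, and no label ties a mouse to one of another group. The lowest FPKM values rest on few fragments, which limits Ms4a3, Chil3 and Fcnb in no CIA paws.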

Other observations

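Eosinophil genes, of which 2 passed the filter, had a median correlation of 0.68 with the early and 0.74 with the late granule genes over the 52 immunised libraries. The 4 haemoglobin genes gave 0.81 and 0.84. Bone-forming cell genes (9 tested) gave 0.29 and 0.37, bone-resorbing osteoclast genes (7 tested) 0.21 and 0.23, and epidermis genes (10 tested) -0.16 and -0.18. Skeletal muscle genes (9 tested) gave 0.07 and 0.08. These are descriptions over libraries that share depth and scaling.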
